A study of Homo sapiens with 4 samples.

Results

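The step from 4 h to 8 h of estrogen treatment was examined in T-47D, an established human breast carcinoma line, from 1 droplet library of single cells. Its 1894 cells were all those called to 4 h or 8 h by the authors' time-point table, out of 4626 T-47D cells called to any time point and 9239 cells used in the whole series. Of the 1894 cells, 1341 were treated for 4 h and 553 for 8 h, both with 10 nM 17β-estradiol (E2), and the vehicle pool of 0 h was not used. All cultures had been kept in hormone-depleted medium before E2, so the comparison is between 2 treated cultures and has no untreated arm. Before mixing, each culture received its own MULTI-seq tag, a short DNA oligo held in the plasma membrane that records which culture a cell came from. The tag reads GCAGCGTA for 4 h cells and TTCTGCCT for 8 h cells. Each time point was 1 culture. No value therefore has a replicate, no test was possible, and every interval covers counting error only.

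Transcripts were counted by unique molecular identifiers (UMIs), 1 per captured molecule. They were summed over the cells of each time point into a pool of 29649051 UMIs at 4 h and 12927799 at 8 h, and scaled to the pool total (CPM). Cells had a median of 21123 UMIs at 4 h and 22576 at 8 h, and a median mitochondrial share of 10.0% and 10.2%. Doublet calls made up 23.8% of all T-47D calls, and a pair of cells of the same time point carries 1 tag and would not be seen. The T-47D and Ishikawa libraries shared 80 cell barcodes, 5 of them among the cells used. All 15 luminal epithelial markers, such as the keratins KRT8, KRT18 and KRT19, lay above the minimum of 10 CPM. None of 16 markers of other cell types did. These summed to 24.6 CPM at 4 h and 19.3 CPM at 8 h, 5 of them (COL1A2, PECAM1, KRT5, PAX8 and SOX17) were at 0 in both pools, and the highest was LUM with a mean of 7.54 CPM.

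E2 binds the estrogen receptor ESR1, a transcription factor of luminal breast cells, which then acts at enhancers and promoters of its target genes. Among its known targets in breast carcinoma are secreted proteins such as TFF1, the progesterone receptor PGR and regulators of the cell cycle. Estrogen also drives arrested breast carcinoma cells from G1 towards DNA replication, through cyclin D and the E2F transcription factors, and E2F proteins in turn act on the genes of S phase. The design asks how the response to E2 unfolds over time, and this step covers its later hours.

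Most genes were nearly level between the pools. Of 33538 genes in the matrix, 7432 had a mean of at least 10 CPM over both pools and were compared as log2((CPM at 8 h + 1)/(CPM at 4 h + 1)), a scale that understates the change of low genes. Their median was 0.015, 4158 of the 7432 lay above 0, and 96.9% lay within 0.32 of 0 in either direction. Above 0 were 3343 of 7399 genes with TMM scaling factors and 3387 of 7402 when scaled by the median of ratios. Past 1.5-fold (0.58 on this scale), 12 genes were higher at 8 h, 0.161% of those compared, and 6 were lower, 0.0807%. None was past 2-fold in either direction. At the looser limit of 0.32 on the log2 scale, 164 genes were higher (2.21%) and 66 lower (0.888%), and these counts became 115 and 86 with TMM scaling factors and 119 and 85 when scaled by the median of ratios. The median half-width of the 95% interval of a gene's log2 ratio was 0.26 at 10 to 20 CPM and 0.021 from 1000 CPM, and 100 of the 164 higher and 26 of the 66 lower genes lay at 10 to 20 CPM. Of the genes that passed the minimum, 108 were under 10 CPM at 4 h, among them LRRN3 and TRIP13 of the 12, and 68 were under it at 8 h.

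**Figure D1:**
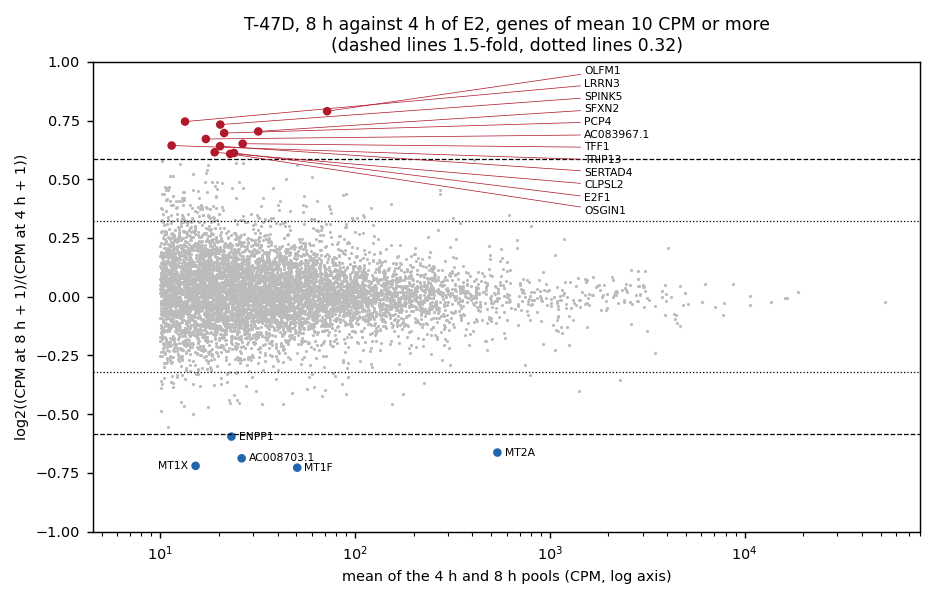
Mean level of the 4 h and 8 h pools (CPM, log axis) against the log2 difference at 8 h, 1 point per gene, for the genes compared in T-47D. The 12 genes past 1.5-fold higher (red) and 5 of the 6 lower (blue) are drawn with their names, 1 lower gene is left out, and of the named genes MT2A is the most abundant.

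Estrogen target genes were higher at 8 h as a group. OLFM1, which encodes a secreted olfactomedin glycoprotein, showed the highest log2 difference of all genes compared. The gene lies on chromosome 9 (135075505 to 135121184, GRCh38.p14). It was at 38.4 CPM at 2 h, 52.4 CPM at 4 h (95% exact Poisson interval 49.8 to 55.1) and 91.3 CPM at 8 h (86.1 to 96.6). The 4 h and 8 h intervals lay apart, with a log2 difference of 0.79 and an interval of the plain ratio from 0.69 to 0.91. TFF1, a secreted trefoil peptide that is a classic estrogen target, was at 20.4 CPM at 4 h (18.8 to 22.1) and 32.6 CPM at 8 h (29.5 to 35.8), a difference of 0.65. At 4 h, 14 cells (1% of the pool) held 39.6% of its UMIs and a single cell held 80, and without the top 1% of cells of each pool its log2 difference was 0.91.

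SERPINA6, which encodes the plasma carrier of glucocorticoids and stood just short of the 1.5-fold limit (1.4985-fold), was far more abundant. Its level was 234 CPM at 2 h, 327 CPM at 4 h (320 to 333) and 490 CPM at 8 h (478 to 502), and 80.8% of 4 h cells and 85.1% of 8 h cells thinned to 1 depth held a UMI of it. CXCL12, a chemokine, was at 25.6 CPM at 2 h, 40.3 CPM at 4 h and 59.9 CPM at 8 h, a log2 difference of 0.56 at the last step. RBBP8, a DNA end resection factor, was at 19.5 CPM at 4 h and 29.3 CPM at 8 h (0.57). CTSD, a lysosomal protease that breast carcinoma cells secrete, was at 233 CPM and 316 CPM (0.44), with a ratio interval of 0.38 to 0.49. PGR was at 281 CPM at 4 h (275 to 287) and 355 CPM at 8 h (345 to 365), and its difference of 0.34 had a ratio interval of 0.29 to 0.39.

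Of 40 listed estrogen targets, 29 passed the minimum. The list, like the others, was chosen with earlier results of these data known. All 29 lay above 0 on the log2 scale, against 4158 of all 7432 genes. With TMM factors all but XBP1 did, and that gene lay below 0. Their median was 0.21, against 0.015 over all genes compared, and it was 0.18 with either scaling factor. Past 0.32 higher were 11 of the 29, against 2.21% of all genes, and 2 of these (OLFM1 and TFF1) were past 1.5-fold, against 0.161%. With either scaling factor 8 were past 0.32. None was past -0.32. The counting interval of the ratio excluded 0 on the higher side for 22 of 29 members and 989 of all 7432 genes. Smaller differences belonged to GREB1, an ESR1 cofactor (37.8 to 47.3 CPM, 0.31), MYB, a transcription factor (14.5 to 18.2 CPM, 0.30), CCND1, which encodes cyclin D1 (126 to 143 CPM, 0.19), and XBP1, a transcription factor of the secretory pathway (717 to 731 CPM, 0.028). ESR1 itself was at 32.9 CPM (30.8 to 35) and 39.3 CPM (36.0 to 42.9), a difference of 0.25. MYC did not reach the minimum, with 204 UMIs at 4 h and 99 at 8 h. Of the other targets under it, KCNK15, GFRA1, SGK1 and RET lay below 0, with ratio intervals that included 0, and the rest lay above 0.

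**Figure D2:**
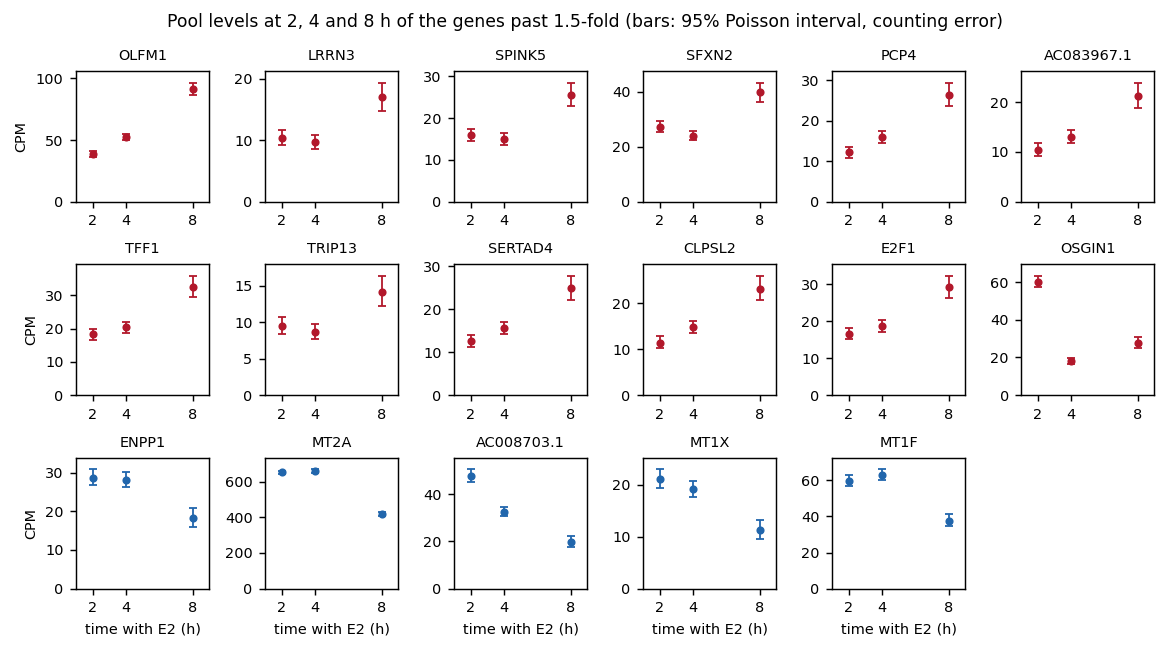
Pool levels (CPM) at 2, 4 and 8 h of E2 in T-47D for the 12 genes past 1.5-fold higher at 8 h than at 4 h (red) and 5 of the 6 lower (blue), with 95% exact Poisson intervals as bars, each panel starting at 0. The 4 h and 8 h bars do not meet in any panel, and of the 12 genes in red OSGIN1 alone had its highest level at 2 h, at 60.2 CPM.

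Genes of DNA replication were also higher at 8 h. E2F1, a transcription factor that acts on replication genes, was at 16.6 CPM at 2 h, 18.7 CPM at 4 h (17.2 to 20.3) and 29.1 CPM at 8 h (26.2 to 32.2), a log2 difference of 0.61. MCM2, a subunit of the replicative helicase, was at 7.96 CPM at 4 h (6.98 to 9.04) and 12.4 CPM at 8 h (10.5 to 14.4). With 1 CPM added to both levels it was just short of the limit at 0.58. DTL, an adaptor of a ubiquitin ligase that acts in S phase, was at 13.9 and 20.4 CPM (0.53), MCM5, another helicase subunit, at 11.9 and 17.5 CPM (0.52), and MCM10, which loads replication factors, at 16.1 and 23.0 CPM (0.49). The intervals of the log2 ratio of these genes spanned 0.30 to 0.93, so their order among themselves is not resolved by the counts.

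Of 62 listed S phase genes, 44 passed the minimum, and all 44 lay above 0, 43 of them with either scaling factor, where SLBP, the histone mRNA binding protein, lay below. Their median was 0.27. Among listed genes under the minimum, GINS3, GINS4 and ORC1 lay below 0, with ratio intervals that included 0. CDCA7 had no UMI, and the others lay above 0. Past 0.32 higher were 14 of 44 (11 with either scaling factor), against 2.21% of all genes. None was past -0.32, and none reached 1.5-fold with 1 CPM added to both levels. Of the 14, MCM2 and GINS1 (9.11 to 12.8 CPM) were under 10 CPM at 4 h and passed the minimum through their 8 h level. The ratio interval excluded 0 on the higher side for 34 of 44 (77.3%), against 13.3% of all genes. This share was 53.5% for G2 and mitosis genes and 52.6% for ribosomal protein genes, whose intervals were narrow. In summed level the list stood at 1603 CPM at 2 h, 1750 CPM at 4 h and 2109 CPM at 8 h, and the log2 ratio of the 8 h sum to the 4 h sum was 0.27 (interval 0.25 to 0.29). G1 regulators were higher by less. Their median was 0.16 over 19 genes, with 17 above 0 and 4 past 0.32 higher, against 2.21% of all genes. These 4 were E2F1, the cyclin CCNE2 (14.6 to 20.3 CPM, 0.45), the pocket protein RBL1 (10.6 to 14.3 CPM, 0.41) and the transcription factor MYBL1 (54.3 to 68.5 CPM, 0.33), which was not past it with either scaling factor. CCND3, another D-type cyclin, lay at the low end with -0.21 and a ratio interval of -0.48 to 0.02.

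The proximal promoters of E2F1 and DTL are shown because E2F sites in promoters are the textbook link between E2F1 and the replication genes described above. They are RefSeq sequences of build GRCh38.p14, the assembly of the hg38 build that the submitters' processing notes name, from 250 bases before to 50 after the start of each gene, read 5′ to 3′ on the strand of the gene. Capitals mark a match to TTTGGCGC or TTTCCCGC, searched on both strands. E2F1 lies at chr20:33686336-33686635 on the minus strand with its match 20 bases before the start, and DTL at chr1:212035498-212035797 on the plus strand with its match 8 bases before the start.
E2F1: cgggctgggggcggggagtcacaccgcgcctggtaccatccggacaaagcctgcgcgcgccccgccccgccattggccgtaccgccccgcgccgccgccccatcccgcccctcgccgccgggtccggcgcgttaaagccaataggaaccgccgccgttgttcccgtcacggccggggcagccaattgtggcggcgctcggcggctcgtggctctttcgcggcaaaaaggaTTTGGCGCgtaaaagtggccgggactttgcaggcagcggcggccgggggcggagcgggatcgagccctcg
DTL: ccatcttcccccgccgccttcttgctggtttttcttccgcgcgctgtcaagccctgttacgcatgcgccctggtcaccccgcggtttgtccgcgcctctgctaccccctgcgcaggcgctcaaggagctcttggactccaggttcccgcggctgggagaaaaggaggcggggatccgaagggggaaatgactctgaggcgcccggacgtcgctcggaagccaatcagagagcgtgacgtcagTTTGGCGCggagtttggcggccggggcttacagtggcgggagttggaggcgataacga

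A match to either E2F sequence stood in 16 of the 36 S phase promoters in the table (44.4%), against 4.26% of the 5960 compared genes with a promoter and 2.31% of all 27305 promoters of the same length. The median log2 difference was 0.31 for the 16 S phase genes with a match and 0.26 for the 20 without. A match is a description of letters and not a binding site, and the promoters of MCM2 and MCM10, which have entries, held neither sequence. No other form of the E2F site was searched. The full estrogen response element (GGTCA, 3 bases of any kind, then TGACC) stood in 1 of the 5960 promoters of compared genes and in 18 of all 27305, too few to compare groups.

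Genes of G2 and mitosis were higher by less than those of S phase, with a median of 0.14 over 43 genes, of which 38 lay above 0, or 36 with either scaling factor. Past 0.32 higher were 4 of 43, against 2.21% of all genes, namely TTK, a spindle checkpoint kinase (9.01 to 12.3 CPM, 0.41), ANLN, a cytokinesis scaffold (34.6 to 45.6 CPM, 0.39), TACC3, a spindle protein (14.8 to 19.6 CPM, 0.38), and the kinesin KIF20B (52.2 to 66.0 CPM, 0.33). With either scaling factor KIF20B was not past it and 3 remained, and TTK stood at -0.015 in cells without a UMI of TOP2A or MKI67. TTK was also under 10 CPM at 4 h and passed the minimum through its 8 h level. MKI67, the proliferation marker, was at 46.9 CPM at 4 h and 52.4 CPM at 8 h (0.16), TOP2A, a topoisomerase of dividing cells, at 123 and 133 CPM (0.12), both below 0 with 4 h cells weighted to the UMIs per cell of 8 h cells (-0.011 and -0.044), and cyclin A2 (CCNA2) at 13.6 and 11.1 CPM (-0.27, ratio interval -0.57 to -0.01).

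The share of cells with a UMI of TOP2A or MKI67 differed in the same direction as these groups. After thinning each cell to 15023 UMIs, which left out 141 shallower cells at 4 h and 48 at 8 h, it was 26.7% at 2 h, 30.3% at 4 h (95% exact binomial interval 27.7% to 33.0%) and 36.6% at 8 h (32.4% to 41.0%). Without thinning it was 31.7%, 37.0% and 41.6%. No cell type that should lack these transcripts was in the library, so the share that free RNA gives could not be measured. In the 845 cells of 4 h and 323 of 8 h without such a UMI, the median of the same 44 S phase genes was 0.059, with 27 above 0, while in cells with such a UMI it was 0.27, with 43 above 0. Of all genes compared, 3857 of 7281 lay above 0 in cells without such a UMI and 4123 of 7547 in cells with one. E2F1 stood at 0.27, MCM2 at 0.17 and TRIP13, an ATPase of the spindle checkpoint, at 0.27 in cells without a UMI of either gene, against 0.54, 0.58 and 0.56 in cells with one. List members were those past the minimum over all cells, and no interval is given within these smaller sets. MCM2 and TRIP13 were already at 7.96 and 8.70 CPM in the whole 4 h pool, where the log2 scale understates a change. For G2 and mitosis genes the medians were 0.041 and 0.023 in the 2 kinds of cell. TOP2A and MKI67 are themselves members of that list, so the split fixes part of these 2 medians in advance. The median of the list was -0.00080 when 4 h cells were weighted to the UMIs per cell of 8 h cells. Estrogen targets did not follow this split. Their median was 0.25 in cells without and 0.25 in cells with a UMI of TOP2A or MKI67, and OLFM1 stood at 0.70 and 0.83. In bulk-like sums of this kind, more cells in S phase and more RNA per cell cannot be told apart, and the part of either in the summed S phase levels was not tested.

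**Figure D3:**
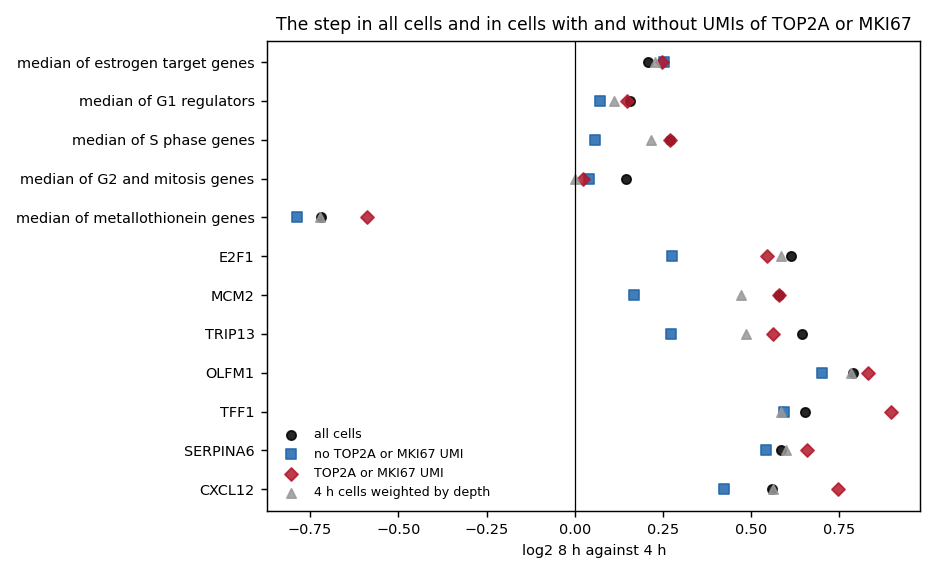
Log2 difference between 8 h and 4 h (x axis) for 5 list medians and 7 genes in T-47D, in all cells, in cells without and with a UMI of TOP2A or MKI67, and with 4 h cells weighted to the depth of 8 h cells. S phase genes, MCM2, E2F1 and TRIP13 sit closer to 0 in cells without such a UMI, while estrogen targets and metallothioneins do not.

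Among the remaining genes past 1.5-fold, several differed in how the UMIs were spread over cells. LRRN3, a neuronal leucine-rich repeat protein, was at 9.75 CPM at 4 h (8.66 to 10.9) and 17.0 CPM at 8 h (14.8 to 19.4), with a UMI in 10.2% and 16.2% of thinned cells. SFXN2, a mitochondrial sideroflexin, was at 24 CPM (22.2 to 25.8) and 39.7 CPM (36.3 to 43.3), with a UMI in 27.3% and 38.8% of thinned cells. In PCP4, a small calmodulin-binding protein, the levels were 16.0 and 26.5 CPM (0.70), and the difference was 0.39 in cells under 10% mitochondrial UMIs. SPINK5, a secreted protease inhibitor, was at 15 CPM and 25.6 CPM (0.73), but the share of thinned cells with a UMI was 7.83% at 4 h and 8.12% at 8 h, and the top 1% of cells held 43.8% and 52.6% of its UMIs. Its log2 difference was 1.28 in cells without a UMI of TOP2A or MKI67 and -0.026 in cells with one. OSGIN1, named for induction by oxidative stress, was at 60.2 CPM at 2 h, 17.9 CPM at 4 h (16.4 to 19.5) and 27.8 CPM at 8 h (25 to 30.8). Its log2 difference was thus -1.70 between 2 h and 4 h and 0.61 between 4 h and 8 h. The other 4 were TRIP13 (8.70 to 14.2 CPM), SERTAD4 (15.6 to 24.9 CPM), CLPSL2 (14.8 to 23.2 CPM), a gene of the colipase family, and AC083967.1 (13.0 to 21.3 CPM).

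A gene just outside the limit rested on a few cells. S100A8, a calcium-binding protein best known from neutrophils, was at 21.2 CPM at 4 h and 31.9 CPM at 8 h (0.57), yet 14 cells held 74.8% of its UMIs at 4 h and 6 cells held 83.8% at 8 h, and without the top 1% of cells its difference was -0.034. Other genes just outside were PPM1J at 1.4809-fold and STMND1 at 1.4748-fold. Nearest the limit on the inside were CLPSL2 at 1.5314-fold, E2F1 at 1.5283-fold and OSGIN1 at 1.5242-fold. On the lower side ENPP1 stood inside at 0.6618 and NDRG1 outside at 0.68112. All these folds were taken with 1 CPM added to both levels. The plain ratio of a low gene just outside, such as NDRG1, can therefore be past 1.5-fold.

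Metallothionein genes were lower at 8 h. These small cysteine-rich proteins bind zinc and copper, and their genes respond to metal and to glucocorticoids. MT2A, the most abundant, was at 653 CPM at 2 h, 660 CPM at 4 h (650 to 669) and 416 CPM at 8 h (405 to 427), a log2 difference of -0.66 with a ratio interval of -0.71 to -0.62. MT1F was at 59.9 CPM at 2 h, 63.2 CPM at 4 h (60.3 to 66.1) and 37.7 CPM at 8 h (34.5 to 41.3), a difference of -0.73. MT1X was at 21.1, 19.1 (17.6 to 20.8) and 11.2 CPM (9.46 to 13.2), a difference of -0.72 that was -1.17 in cells without and -0.38 in cells with a UMI of TOP2A or MKI67. The levels of 2 h and 4 h were close for all 3, and the 8 h level stood apart below them. All 3 were past 1.5-fold lower, against 0.0807% of all genes, and they were 3 of the 6 genes past that limit. Of 11 listed members, MT1M was under the minimum with 232 UMIs at 4 h and 67 at 8 h, and the other 7 had no UMI. The list was added after these values were seen. The genes are related in sequence, and how reads that fit more than 1 of them were handled was not checked.

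MT2A starts at position 56608584 and MT1X ends at position 56684196 of chromosome 16 in RefSeq's GRCh38.p14 annotation, within 75613 bases, and MT1F lies between them, from 56657959 to 56659303. The promoters of MT2A (chr16:56608334-56608633, plus strand) and MT1X (chr16:56682220-56682519, plus strand) are shown because both hold the core of the metal response element, the sequence through which metal acts on these genes. Capitals mark a match to TGCACNC or TGCGCNC on either strand.
MT2A: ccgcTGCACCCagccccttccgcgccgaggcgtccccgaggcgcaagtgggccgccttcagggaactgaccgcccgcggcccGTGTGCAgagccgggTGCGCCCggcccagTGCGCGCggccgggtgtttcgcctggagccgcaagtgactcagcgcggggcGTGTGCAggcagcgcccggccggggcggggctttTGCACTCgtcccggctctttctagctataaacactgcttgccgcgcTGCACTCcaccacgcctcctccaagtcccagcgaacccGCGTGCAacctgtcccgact
MT1X: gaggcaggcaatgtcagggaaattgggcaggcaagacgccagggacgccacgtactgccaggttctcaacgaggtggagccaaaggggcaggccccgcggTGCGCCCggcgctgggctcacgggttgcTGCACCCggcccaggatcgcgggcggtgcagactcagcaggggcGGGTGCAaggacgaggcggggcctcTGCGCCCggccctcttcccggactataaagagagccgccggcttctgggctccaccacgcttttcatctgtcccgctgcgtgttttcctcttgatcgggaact

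MT2A held 8 matches in its 300 bases and MT1X 4. At least 1 match stood in 29.3% of all 27305 promoters, at least 4 in 0.593% and at least 8 in 0.022%. Among the 5960 compared genes with a promoter these shares were 40.1%, 0.889% and 0.0336%, and 19 of the 50 past 0.32 lower (38.0%) held at least 1, so that a single match was no more frequent among lower genes. At least 4 matches stood in 2 of the 50, MT2A and MT1X. This motif was chosen after the lower level of these genes was seen, and a match is a description of letters. In single cells the difference was a shift of most of the distribution. Summed UMIs of all 11 listed metallothionein genes, MT1M included, had a median per thinned cell of 7 at 4 h and 5 at 8 h. Above 22, the 90th percentile of 4 h cells, lay 9.75% of 4 h cells and 4.55% of 8 h cells (2.91% to 6.76%). The 3 genes stood below 0 in cells without a UMI of TOP2A or MKI67 (median -0.79) and in cells with one (-0.59).

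Also past 1.5-fold lower were ENPP1, a membrane enzyme that releases pyrophosphate, and AC008703.1. ENPP1 was at 28.7, 28.1 (26.2 to 30.1) and 18.3 CPM (16.0 to 20.7), a difference of -0.60. AC008703.1 was at 47.7, 32.5 and 19.8 CPM, so that it was lower at 4 h than at 2 h (-0.54) as well as lower at 8 h than at 4 h (-0.69). The later difference was -1.14 in cells under 10% mitochondrial UMIs and -0.31 in cells with a UMI of TOP2A or MKI67. The next 9 genes by difference lay between -0.55 and -0.45 and included the stress-linked NDRG1 (13.2 to 8.66 CPM, -0.55), the lipoprotein lipase inhibitor ANGPTL4 (17.4 to 12 CPM, -0.50), the steroid receptor cofactor SRARP (20.5 to 14.5 CPM, -0.47) and the lipid carrier APOD (15.4 to 10.9 CPM, -0.47).

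Abundant transcripts differed by smaller folds with narrow intervals. KRT8, a luminal keratin, had the largest gain in level, from 3756 CPM at 4 h to 4332 CPM at 8 h (0.21, ratio interval 0.19 to 0.22), while its filament partner KRT18 was at 4691 and 4336 CPM (-0.11, ratio interval -0.13 to -0.10) and KRT7 at 338 and 276 CPM (-0.29). KRT8 lay higher and KRT18 lower under either scaling factor as well. MGP, a matrix protein that inhibits calcification, was at 2580 CPM at 4 h and 2018 CPM at 8 h (-0.35). Beta-actin (ACTB) was at 3751 and 3172 CPM (-0.24), and TMSB4X, which binds actin monomers, at 4867 and 4462 CPM (-0.13).

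Nuclear receptors and stress pathways had medians near 0, with single members past 0.32. Of 29 nuclear receptors and coregulators, 21 lay above 0 with a median of 0.067, and 4 were past 0.32 higher, against 2.21% of all genes, namely NR1D2, a repressor of the clock (9.21 to 12.1 CPM, 0.36, but -0.070 in cells under 10% mitochondrial UMIs), TFAP2C, a luminal transcription factor (47.3 to 61.0 CPM), PGR, and NRIP1, a corepressor of ESR1 (30.3 to 38.3 CPM). NR1D2 was under 10 CPM at 4 h and passed the minimum through its 8 h level. PGR and NRIP1 are also on the estrogen target list and were counted there. With either scaling factor NR1D2 and TFAP2C alone were past 0.32 higher and the retinoic acid receptor RARG was past it lower. The ratio interval excluded 0 on the higher side for 9 of 29 (31.0%), against 13.3% of all genes. Of 19 integrated stress response genes, 14 lay below 0 with a median of -0.067, and 2 were past 0.32 lower, against 0.888% of all genes. These were NUPR1, a stress-induced chromatin protein (1601 to 1212 CPM, -0.40), and DDIT4, an inhibitor of mTOR (28.5 to 20.7 CPM, -0.44). The list's summed level was 2996 CPM at 4 h and 2498 CPM at 8 h, most of the gap being NUPR1. Of 9 genes reported as lowered by E2, 2 were past 0.32 lower, against 0.888% of all genes. These were the interleukin receptor IL1R1 (26.2 to 19.0 CPM, -0.44) and the receptor kinase ERBB2 (64.2 to 48.6 CPM, -0.39). The median of the list was 0.00091, or -0.026 with TMM factors and -0.025 by the median of ratios. With TMM factors 7 of the 9 lay below 0, against 4056 of 7399 genes. The ratio interval excluded 0 on the lower side for 4 of 9 (44.4%), against 8.7% of all genes, and on the higher side for 1.

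Medians of the remaining lists lay between -0.062 for cholesterol synthesis (24 genes) and 0.052 for immediate-early genes (11 genes). Glycolysis and hypoxia (20 genes), aminoacyl-tRNA synthetase (20 genes) and endoplasmic reticulum chaperone genes (22 genes) had 1 member each past 0.32 lower, against 0.888% of all genes, namely NDRG1, TARS (79.8 to 60.3 CPM, -0.40) and DNAJB9 (25.5 to 20.2 CPM, -0.32). Of 19 histone genes 1 was past it higher, against 2.21% of all genes, and none with either scaling factor. This was HIST1H1D, a linker histone (23.3 to 29.8 CPM, 0.34), whose difference was -0.14 in cells under 10% mitochondrial UMIs. Heat shock (23 genes, median -0.017), interferon-stimulated (13 genes, -0.043), ribosome biogenesis (50 genes, -0.0018), ribosomal protein (38 genes, 0.019) and mitochondrially encoded genes (13 genes, -0.021) had none in either direction. HSPA1B, a chaperone gene, was past it lower with either scaling factor. It closely resembles HSPA1A, and how reads that fit both were handled was not checked. The ribosomal protein median was -0.0094 with TMM factors and -0.0084 by the median of ratios, so it has no stable direction. The luminal marker median was 0.028, and PGR was the only 1 of 15 past 0.32 in either direction, and none was with either scaling factor.

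**Figure D4:**
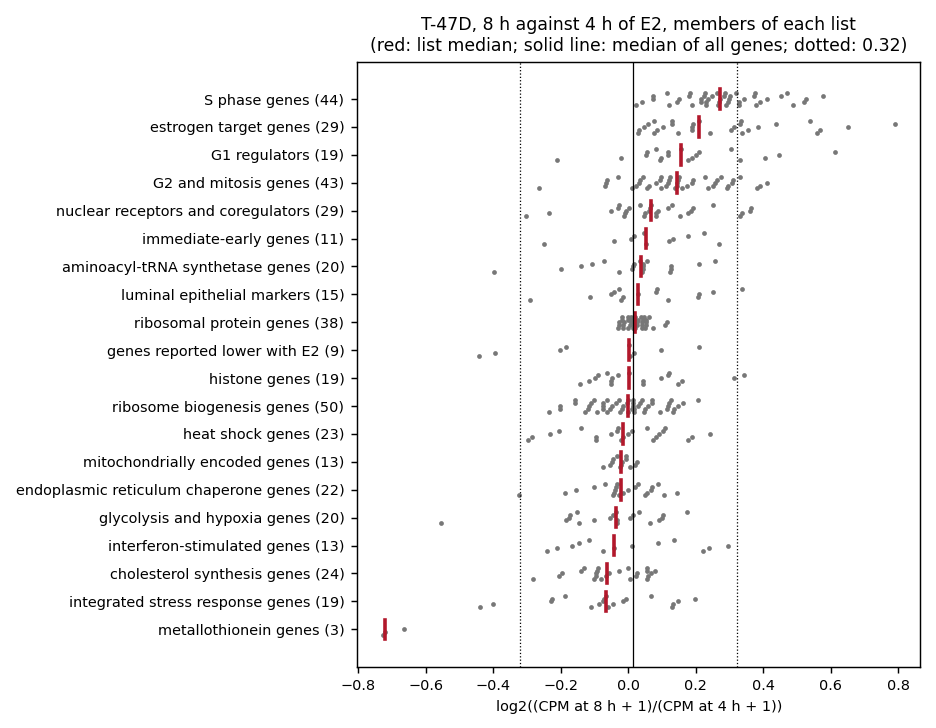
Log2 difference between 8 h and 4 h (x axis) of each list member past the minimum in T-47D, 1 row per list with the number of members, the list median in red and the median of all 7432 genes as a solid line. The S phase and estrogen target genes shown lie above 0, except SLBP and XBP1 with TMM factors, and the 3 metallothionein genes lie below -0.6.

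The spread over cells differed between the groups of genes. Sums per cell took every listed member, also those under the minimum. Summed UMIs of the 40 estrogen targets per thinned cell had a median of 77 at 4 h and 86 at 8 h, and 9.92% of 4 h cells (8.28% to 11.7%) and 19.6% of 8 h cells (16.2% to 23.3%) lay above 116, the 90th percentile of 4 h. For the 62 S phase genes the medians were 14 and 15, close together, while the 90th percentile was 57 at 4 h and 86.2 at 8 h, and 9.75% (8.13% to 11.6%) and 14.7% (11.7% to 18.0%) of cells lay above 57. The difference in the S phase sums thus stood mainly in the upper part of the distribution. OLFM1 had a UMI in 41.8% of thinned 4 h cells (38.9% to 44.6%) and 60.4% of 8 h cells (56.0% to 64.7%), or 51.0% and 70.3% without thinning.

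**Figure D5:**
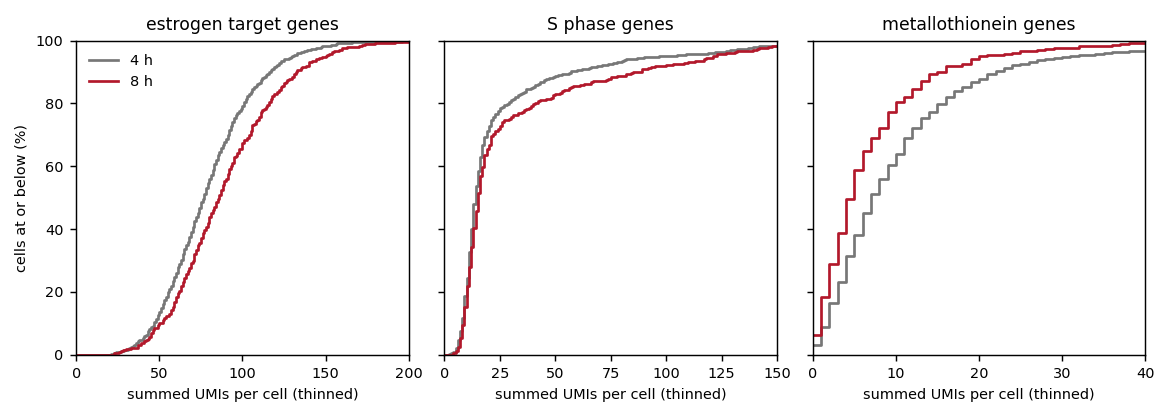
Share of cells (%, y axis) at or below each number of summed UMIs per cell (x axis) for 3 lists at 4 h (grey, 1200 cells) and 8 h (red, 505 cells) of E2 in T-47D, thinned to 15023 UMIs. The estrogen target curve is shifted right at 8 h along most of its length, the S phase curve mainly above its 60% level, and the metallothionein curve is shifted left.

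The preceding step, from 2 h to 4 h, shares the 4 h pool and is set beside this one as values only. Among 7408 genes compared there, 8 were past 1.5-fold higher (0.108%) and 15 lower (0.202%), and 56 were past 0.32 higher (0.756%) and 98 lower (1.32%). Estrogen targets had a median of 0.034 at that step and 0.21 at the later one, S phase genes 0.12 and 0.27, G2 and mitosis genes 0.075 and 0.14, and metallothionein genes 0.014 and -0.72. OLFM1 (0.44 and 0.79), SERPINA6 (0.48 and 0.58), CXCL12 (0.64 and 0.56) and SUSD3 (0.91 and 0.54), a sushi domain protein, were higher at each step. MYB (-0.61 and 0.30), CCND1 (-0.33 and 0.19), IER3, an immediate-early gene (-0.31 and 0.12), RUNX1, a transcription factor (-0.79 and 0.35), NRIP1 (-0.54 and 0.33) and TFAP2C (-0.44 and 0.36) were lower at the first and higher at the second.

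The same step in Ishikawa, an endometrial adenocarcinoma line treated alike, was read from 892 cells at 4 h and 1465 at 8 h. Of 7843 genes compared, 11 were past 1.5-fold higher (0.14%) and 8 lower (0.102%), and 94 were past 0.32 higher (1.2%) and 84 lower (1.07%). With 1 culture per time in each line, no difference between the lines could be tested. Over the 6372 genes compared in both lines, the log2 differences had a Pearson correlation of 0.10, given as a description. The points of each line share the same pair of pools. Of the 6372 genes, 99 were past 0.32 higher in T-47D and 37 in Ishikawa. In both lists was 1 gene (PHLDA2), which is 1.01% and 2.70% of each list. Of the same 6372 genes, 33 and 46 were past it lower. In both lists were 3 genes (FLOT1, NUPR1 and PRSS8), which is 9.09% and 6.52% of each list. The median of S phase genes was 0.015 in Ishikawa with 24 of 43 above 0. Over all 7843 genes compared there the median was 0.021, with 4481 above 0. E2F1 was at 18.5 and 18.8 CPM in that line. Estrogen targets had a median of 0.11 over 15 genes. MT2A was at 382 CPM at 4 h and 342 CPM at 8 h (-0.16), and the 3 metallothionein genes had a median of -0.26. TFF1, SERPINA6, CXCL12 and OLFM1 had no UMI in either Ishikawa pool. In opposite directions past 0.32 stood 4 genes. CD44, GNG11 and OSGIN1 were higher at 8 h in T-47D (0.35, 0.46 and 0.61) and lower in Ishikawa (-0.41, -0.41 and -0.47), and KCNMA1 was lower in T-47D (-0.37) and higher in Ishikawa (0.40). None did so past 1.5-fold.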

How the data were processed

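Single-cell RNA sequencing of T-47D and Ishikawa cells treated with 10 nM E2 was deposited as UMI counts per gene and cell barcode, made by the authors with Cell Ranger 3.1.0 on hg38, as the submitters' processing notes name the build. The authors called time points from the MULTI-seq tags, and those calls were used as deposited. The study's limits for T-47D cells (7500 to 40000 UMIs, 1500 to 6000 genes, under 20% mitochondrial UMIs) removed none of the called cells, those for Ishikawa (8500 to 35000 UMIs, 2700 to 6000 genes, under 7%) were applied, and no doublet caller was run.

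From these counts, UMIs were summed per time point and scaled to CPM. Genes of mean 10 CPM or more were compared with a pseudocount of 1 CPM. Depth was 29649051 UMIs at 4 h and 12927799 at 8 h. Intervals of 95% are exact Poisson for CPM, exact conditional binomial for ratios (without the pseudocount) and exact Clopper-Pearson for shares. For single-cell shares, cells were thinned to 15023 UMIs, the 10th percentile. TMM and median-of-ratios factors were written anew in Python and tested on simulated data. No significance test was run.

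Named genes were the 15 highest and 15 lowest differences, the 5 largest gains and losses in CPM, both ends of each list, 11 fixed genes, and genes that moved past 1.5-fold in opposite ways in T-47D and Ishikawa (none did). List members past 0.32 on the log2 scale, those set side by side at both steps, genes near the limit and genes shared by or opposite in the lines at that limit were named after their values were seen. The results of some genes that the rule named are not reported here. Members and lists were chosen with earlier results of these data known. Promoters came from RefSeq (GRCh38.p14), the first start listed for each gene, and 5960 of 7432 compared genes (80.2%) matched by Ensembl identifier or symbol. The motif share of the estrogen target list is not given because fewer of its promoters were in the table. Python 3.11.15, numpy 2.4.6, scipy 1.17.1, pandas 2.3.3 and matplotlib 3.10.9 were used.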

Additional observations from a re-analysis of the deposited data

How the results depend on the processing

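No paired analysis was possible because each time point was 1 culture and no replicate numbers are shared. With 1 culture per time, a difference between cultures and the effect of 4 h more of E2 cannot be told apart, and depth limits genes near 10 CPM. The counts past 1.5-fold, 12 higher and 6 lower, were 72 and 78 over all detected genes, 1 and 2 from 50 CPM, 4 and 3 with a pseudocount of 5 CPM, 26 and 17 in cells with a UMI of TOP2A or MKI67, 164 and 66 at 0.32 on the log2 scale and 0 and 0 at 2-fold. The higher count was also 31 in cells under 10% mitochondrial UMIs and 25 in thinned cells, which have fewer UMIs. In the other settings it was 10 to 17 and the lower count 5 to 9. Over 83 named genes and 12 settings, 124 of 996 values moved beyond their counting interval and 29, of 13 genes, had the other sign. Of the 18 genes past 1.5-fold 1 did, SPINK5, at -0.0259 in cells with a UMI of TOP2A or MKI67. Of the 40 past 0.32, which include those 18, TTK, NR1D2, HIST1H1D and S100A8 also did in 1 setting each, and the other 8 genes had differences under 0.32. Of 258 list medians under other settings, 13 moved. The S phase median was 0.0586 in cells lacking UMIs of both TOP2A and MKI67, the G2 and mitosis median -0.0008 with weighted 4 h cells, and the median of genes reported lower with E2 -0.1707 in cells under 10% mitochondrial UMIs. The median of ribosomal protein genes was -0.0094 under TMM, -0.0084 under median-of-ratios scaling and 0.0536 in cells with a UMI of TOP2A or MKI67. The median of mitochondrially encoded genes was -0.0492 under TMM, -0.0482 under median-of-ratios scaling, -0.0079 in cells lacking UMIs of both, -0.0027 in cells under 10% mitochondrial UMIs, -0.0329 in thinned cells, -0.0363 with weighted 4 h cells and -0.0324 in cells with a UMI of TOP2A or MKI67. Weighting, the cells with a UMI of TOP2A or MKI67 and leaving out the top 1% of cells were chosen after seeing the data. The cause was not tested where a value moved.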
